A study of Schizosaccharomyces pombe with 2 samples.

Results

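The nucleolar ribosome biogenesis factors of fission yeast (Schizosaccharomyces pombe) were examined in cells lacking mga2 and in their control. They were taken as the array probes whose gene has a RefSeq symbol starting with utp, nop, rrp, noc or nog followed by a number. The rule found 61 genes among the 5057 with a probe, each measured by 1 probe. Of the 61, 29 belong to the small-subunit processome and small-subunit assembly, 18 to the assembly of large-subunit precursors, 8 to the RNA exosome and 3 to the cores of small nucleolar ribonucleoproteins. The remaining symbols are noc12, to which no role is given here, and rrp1 and rrp2, which in this species name DNA translocases of the Swi2/Snf2 family that act in DNA repair. The symbol rule therefore took in at least these last 2 genes without a known place in ribosome assembly.

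RNA of the mga2 deletion strain ESY173 (mga2Δ below) was set against RNA of strain KGY425 (WT below), 2 biological replicates of each. Both strains were in log-phase growth in YES medium and spent 1.5 h without oxygen in an anaerobic chamber. The sample labels call KGY425 wild type, whereas the series design describes sre1 as deleted in both strains. Neither strain gave an sre1 signal well above background. Mga2 activates transcription of genes of lipid synthesis, and the series asks how its loss disturbs lipids and the SREBP transcription factors, of which sre1 encodes one. All cells compared had been held without oxygen, so no value below gives the response to its loss.

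Ribosomes are built in the nucleolus, where RNA polymerase I makes a long precursor that holds rRNAs of both subunits. The processome, assembled around the U3 small nucleolar RNA, folds and cuts the small-subunit part, other factors shape the large-subunit precursor, and the exosome trims RNA ends. In yeasts the genes of these factors are known to be transcribed together, at a pace that follows growth, and to be turned down under stress.

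Each replicate pair shared 1 Agilent 2-colour array, with mga2Δ in Cy5 on array 1 and in Cy3 on array 2. Ratios below are mga2Δ over WT on the log2 scale, set by loess so that most genes on an array lie near 0, and the ± is the SD over 2 arrays. That number of arrays limits the precision. In mga2Δ, mga2 had 0 spots well above background on array 1 and 1 on array 2, short of the 2 required. As a mean over both arrays, mga2 was at least 85.0-fold lower than in WT (log2 ratio −6.13 on array 2 alone). Of 4964 genes tested with limma at a Benjamini-Hochberg adjusted p of 0.05, 10.9% were lowered in mga2Δ and 18.4% were raised. All 61 factors were tested, and all were well above background in both channels of both arrays. Their probes had a median mean log2 signal of 11.41, against 10.40 over all genes tested, which bears on the stretch of the dye curve they are read from.

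Of the 61 factors, 24 were lowered in mga2Δ and none was raised, and the other 37 did not pass the test. These calls depend on the scaling: 0 factors were lowered with median centring in place of loess or with spike-in centring without loess, 6 with spike-in centring after loess, and 2 with prior degrees of freedom of 2.81 in place of 5.62. At an unadjusted p under 0.05 with limma, 37 were lower and 0 were higher, against 873 and 1198 of the 4964 genes tested. The lowered share was 39.3%, against 10.9% of all genes tested. The median log2 ratio of the 61 factors was −0.26, equal to 1.20-fold lower in mga2Δ, and over all genes tested it was 0.00. None of the ratios was large: the lowered members ran from −0.48 (rrp7) to −0.31 (rrp40), and no factor fell below −0.5. The RNA came from whole cultures, so less of a transcript in every cell and its loss from some of the cells cannot be told apart. Leaving out rrp1 and rrp2 kept all 24 lowered factors among 59 genes, with a median of −0.26.

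With loess, the direction was shared by both arrays. The median of the 61 factors was −0.27 on array 1 and −0.24 on array 2, and 52 factors (85.2%) lay below 0 on both, against 37.6% of all genes tested. Only utp3 lay above 0 on both arrays, against 40.1% of all genes tested, and 8 factors had opposite signs (utp7, nop14, utp16, utp14, rrp17, nog2, rrp45 and rrp2). Which genes these are depends on the normalization. With median centring in place of loess, utp7, nop14 and nog2 lay below 0 on both arrays. In that setting utp3, noc12, utp20 and rrp1402 had opposite signs. The mean ratio was below 0 for 59 factors, against 49.3% of all genes tested. Counts of sign depend on where 0 is set. Means below 0 numbered 60 with median centring, 51 with loess then spike-in centring and 48 with spike-in centring without loess. The shares over all genes in those settings are not given here. In normalized channel signals, both mga2Δ values lay below both WT values for 51 of the 61 factors, including all 24 lowered ones, against 32.8% of all genes tested. The opposite order held for utp3 alone, against 36.4% of all genes tested. For lowered genes, mga2Δ values below WT values are nearly fixed by the call. Over all genes tested, 537 of the 541 lowered ones were separate in this way.

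**Figure D1:**
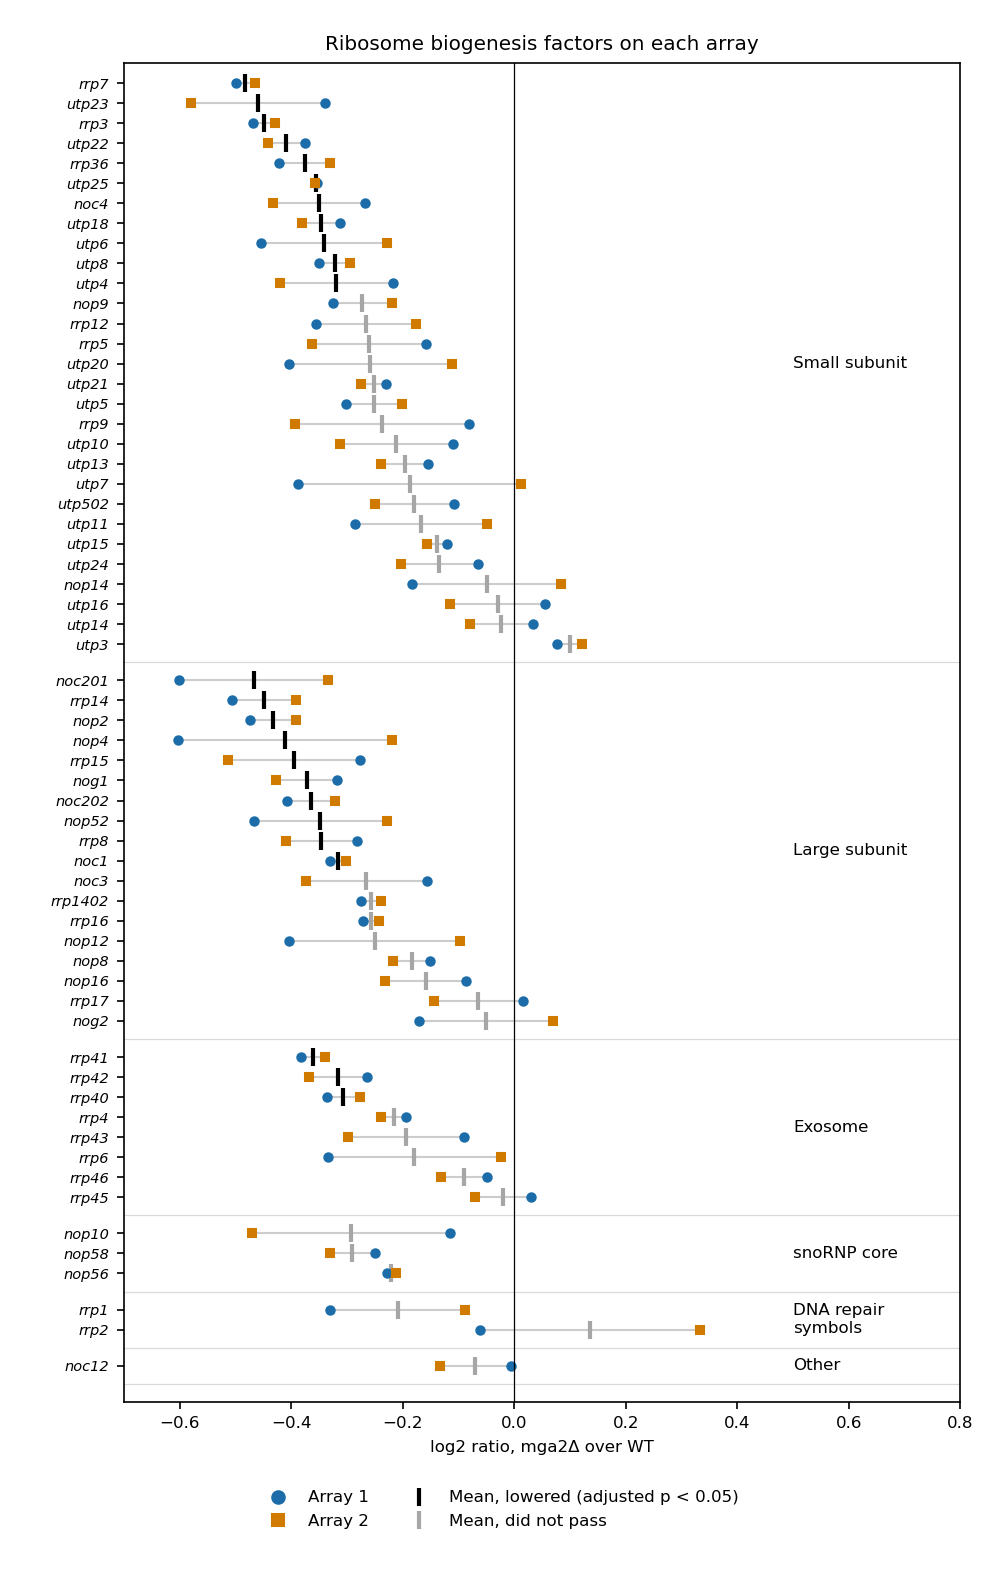
Log2 ratio of mga2Δ over WT for each of the 61 factors, by role; circles are array 1, squares array 2 and ticks the mean, black where limma's adjusted p was under 0.05. The 24 lowered factors lie left of 0 on both arrays, and utp3 is the only factor right of 0 on both.

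**Figure D2:**
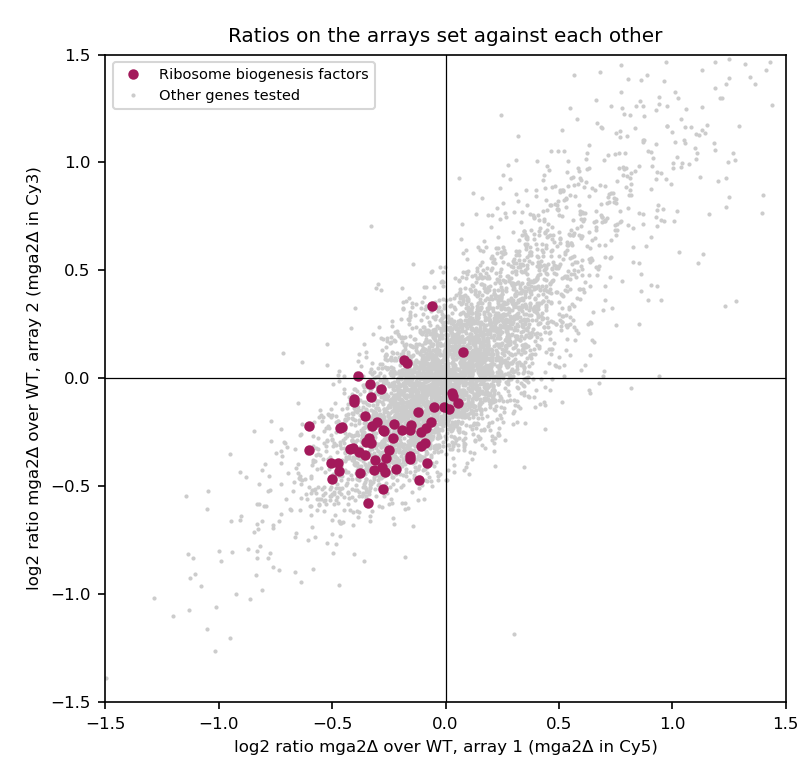
Log2 ratio on array 2 against that on array 1 for the 61 factors and the other genes tested; 166 genes beyond 1.5 on an axis are not drawn, none of them a factor. Most factors sit at the lower left, with 52 of 61 below 0 on both arrays.

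Of the 29 small-subunit factors, 11 (37.9%) were lowered in mga2Δ and 0 were raised, against 10.9% and 18.4% of all genes tested. Their median log2 ratio was −0.26. The lowest was rrp7, which in budding yeast works with Utp22 in the UTP-C complex. Its log2 signal was 9.72 and 9.93 in mga2Δ on arrays 1 and 2, against 10.21 and 10.40 in WT. Both mga2Δ values lay below both WT values, and rrp7 was 1.40-fold lower (log2 ratio −0.48 ± 0.02, limma adjusted p = 0.00894, n = 2 arrays). Its partner utp22 had log2 signals of 9.75 and 9.77 in mga2Δ, against 10.13 and 10.21 in WT. The strains did not overlap, at a log2 ratio of −0.41 ± 0.05 (limma adjusted p = 0.0169). Another factor of the early cuts, rrp36, was lowered to a similar degree (−0.38 ± 0.07).

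The RNA-handling proteins of the processome followed. Log2 signals of utp23, a relative of the nuclease Utp24, were 11.06 and 10.87 in mga2Δ, against 11.40 and 11.45 in WT. The ratio of utp23 was −0.46 ± 0.17 (limma adjusted p = 0.0165), with the larger difference on array 2. For rrp3, a DEAD-box RNA helicase, log2 signals were 11.34 and 11.35 in mga2Δ, against 11.81 and 11.78 in WT. Here the arrays were close, at −0.47 and −0.43 (mean −0.45 ± 0.03, limma adjusted p = 0.0117). The helicase-like factor utp25 was lowered by nearly the same amount on both arrays, at −0.35 and −0.36. The nuclease utp24 itself did not pass (−0.13 ± 0.10), nor did nop9, an RNA-binding protein with Pumilio-like repeats (−0.27 ± 0.07, limma adjusted p = 0.0649).

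The processome's first building blocks are the complexes UTP-A, which binds the start of the precursor and also assists its transcription, and UTP-B. Of 6 UTP-A genes, utp8 (−0.32 ± 0.04) and utp4 (−0.32 ± 0.14) were lowered, while utp5, utp10, utp502 and utp15 had ratios between −0.25 and −0.14 and did not pass. Of 4 UTP-B genes, utp18 (−0.35 ± 0.05) and utp6 (−0.34 ± 0.16) were lowered, while utp21 and utp13 stood at −0.25 and −0.20 and did not pass. All 10 of these genes lay below 0 on both arrays, against 37.6% of all genes tested. Only genes caught by the symbol rule are counted here, so the complexes may have members outside these 10. The utp4 call was the closest to the threshold of all 24 (limma adjusted p = 0.0489) and was lost when outlier spots were kept (adjusted p = 0.0513).

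With loess, not every processome gene moved this way. Log2 signals of utp3, a Sas10-family protein, were 12.99 on both arrays in mga2Δ, against 12.91 and 12.86 in WT. Its ratio of 0.10 ± 0.03 did not pass, with a 95% confidence interval from −0.11 to 0.31. Near 0 were utp14 (−0.02 ± 0.08), utp16 (−0.03 ± 0.12) and nop14 (−0.05 ± 0.19), each with opposite signs on the arrays. With median centring in place of loess, utp3 stood at 0.07 and −0.26 and nop14 at −0.14 and −0.13. The opposite signs of utp14 and utp16 remained there. Noc4, the protein that Nop14 binds in budding yeast, is encoded by noc4, which was lowered (−0.35 ± 0.12). The difference between nop14 and noc4 was not tested. The other small-subunit factors that did not pass were rrp12, rrp5, which acts in both subunits' processing, utp20, rrp9, utp7 and utp11, with ratios between −0.27 and −0.17.

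The 18 large-subunit factors held 10 lowered genes (55.6%) and no raised one, against 10.9% and 18.4% of all genes tested. Their median was −0.33. The Noc proteins travel in pairs with Noc2 in budding yeast, and the RefSeq table gives noc2 as an alias of both noc201 and noc202. Log2 signals of noc201 were 10.63 and 10.82 in mga2Δ, against 11.23 and 11.16 in WT, a ratio of −0.47 ± 0.19 (limma adjusted p = 0.017). Those of noc202 were 12.09 and 12.00 in mga2Δ, against 12.50 and 12.32 in WT, a ratio of −0.36 ± 0.06 (limma adjusted p = 0.0256). Both copies were thus lowered, with no overlap between strains, as was noc1 (−0.32 ± 0.02). The remaining partner noc3 had a ratio of −0.26 ± 0.15 and did not pass.

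Enzymes and RNA-binding proteins of the large-subunit precursor were also among the lowered genes. Nop2 is an rRNA cytosine methyltransferase, and nop2 had log2 signals of 12.30 and 12.49 in mga2Δ, against 12.77 and 12.88 in WT. The ratio was −0.43 ± 0.06, with mga2Δ below WT throughout (limma adjusted p = 0.014). The methyltransferase gene rrp8 was lowered as well (−0.35 ± 0.09). Nop4 carries RNA recognition motifs, and nop4 had log2 signals of 11.28 and 11.29 in mga2Δ, against 11.88 and 11.51 in WT. Its difference was larger on array 1 (−0.60) than on array 2 (−0.22), at a mean of −0.41 ± 0.27 (limma adjusted p = 0.0387). The GTPase nog1 was lowered (−0.37 ± 0.08), whereas nog2, the GTPase of a later nuclear step, had opposite signs on the arrays (−0.05 ± 0.17) and did not pass. With median centring in place of loess, nog2 lay below 0 on both arrays, at −0.19 and −0.44, and did not pass there either. Lowered too were rrp15 (−0.39 ± 0.17) and nop52, a member of the Rrp1 family of rRNA processing factors (−0.35 ± 0.17).

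The SURF6-family gene rrp14 has a second copy, rrp1402. Log2 signals of rrp14 were 11.22 and 11.31 in mga2Δ, against 11.72 and 11.70 in WT, a ratio of −0.45 ± 0.08 (limma adjusted p = 0.013). The rrp1402 probe had log2 signals of 7.33 and 7.46 in mga2Δ, against 7.61 and 7.70 in WT. Its ratio of −0.26 ± 0.03 did not pass (limma adjusted p = 0.0716). A similar pair is utp5 (−0.25 ± 0.07) and utp502 (−0.18 ± 0.10), neither of which passed. Whether the probes separate such copies was not tested. The other large-subunit factors that did not pass were rrp16, nop12, nop8 and nop16, with ratios between −0.26 and −0.16, and rrp17 at −0.06 ± 0.11.

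The RNA exosome is a ring of RNase PH-like proteins with a cap of RNA-binding proteins, and it trims rRNA precursors among many other RNAs in the nucleus and the cytoplasm. Of its 8 genes here, 3 (37.5%) were lowered and none rose, against 10.9% and 18.4% of all genes tested, and the median was −0.21. The ring gene rrp41 had log2 signals of 9.36 and 9.26 in mga2Δ, against 9.74 and 9.60 in WT, a ratio of −0.36 ± 0.03 (limma adjusted p = 0.0252). The ring gene rrp42 (−0.32 ± 0.07) and the cap gene rrp40 (−0.31 ± 0.04) were the other lowered subunits. The cap gene rrp4 (−0.22 ± 0.03) and the ring genes rrp43 (−0.19 ± 0.15), rrp46 (−0.09 ± 0.06) and rrp45 (−0.02 ± 0.07) did not pass. The nuclear exonuclease rrp6 had −0.33 on array 1 and −0.02 on array 2 and did not pass.

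The symbol rule took in 3 small nucleolar ribonucleoprotein genes. With limma, 0 of these 3 passed (3 at an unadjusted p under 0.05, against 2071 of the 4964 genes tested). All 3 lay below 0 on both arrays, against 37.6% of all genes tested. Nop56 and Nop58 form the core of the methylation-guiding particles, and Nop10 belongs to the pseudouridylation-guiding ones. The ratio of nop58 was −0.29 ± 0.06, just above the threshold (limma adjusted p = 0.0521), that of nop56 was −0.22 ± 0.01 and that of nop10 −0.29 ± 0.25. Other genes of these particles are counted below among the other assembly factors. Of those, gar1 was lowered (−0.46 ± 0.15, limma adjusted p = 0.0155). The genes nhp2, fib1, cbf5 and snu13 had ratios between −0.20 and −0.02 and did not pass. The DNA repair genes caught by the symbol rule went apart, with rrp1 at −0.21 ± 0.17 and rrp2 at 0.14 ± 0.28, the highest ratio of the 61. Neither passed, and the 95% confidence interval of rrp2 ran from −0.14 to 0.42. The noc12 ratio was −0.07 ± 0.09.

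**Figure D3:**
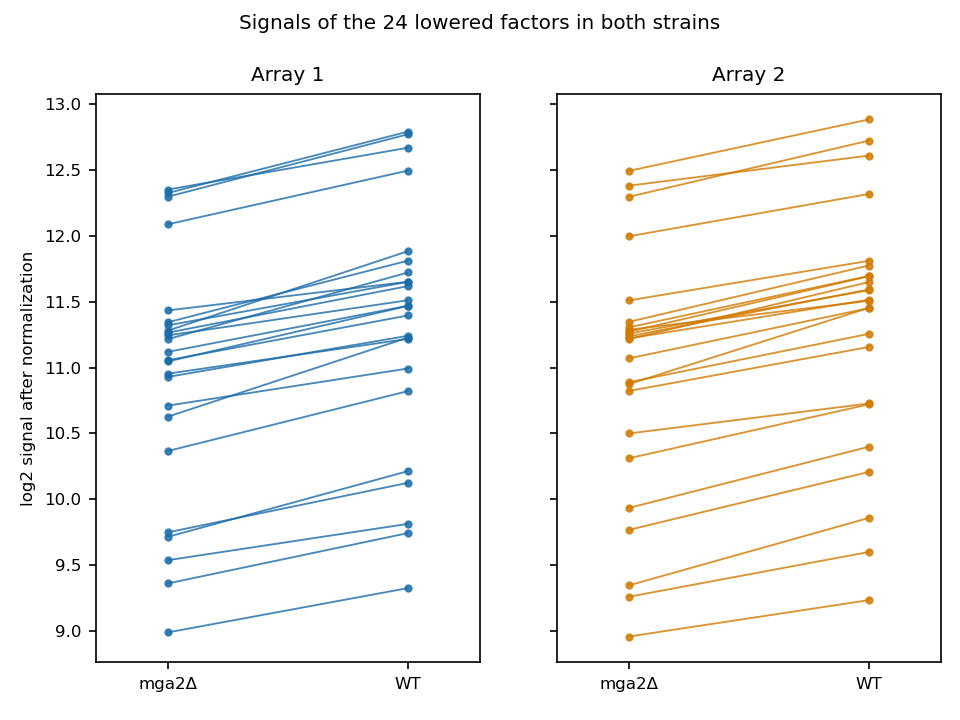
Log2 signal of the 24 lowered factors in mga2Δ (left) and WT (right) on each array, after loess and between-array normalization; each line is 1 gene. Every line runs from a lower mga2Δ value to a higher WT value on both arrays, a direction largely set by drawing only lowered genes.

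Genes of ribosome assembly that the symbol rule leaves out gave similar counts. Among 66 other assembly factors, 29 passed as lower (43.9%) and 0 as higher, against 10.9% and 18.4% of all genes tested. Their median was −0.29. The lowest were arx1, a nuclear export factor of the large subunit (−0.57 ± 0.15), sda1, which acts in large-subunit maturation (−0.56 ± 0.05), and lcp5 of the processome (−0.55 ± 0.12). Of 16 genes of RNA polymerase I and its transcription factors, 7 (43.8%) were lowered and 0 were raised, at a median of −0.27. They were led by the polymerase subunits rpa34 (−0.61 ± 0.29), rpa12 (−0.39 ± 0.14) and ker1 (−0.39 ± 0.11). Of 9 further genes of the exosome and its helpers, 3 (33.3%) were lowered and 0 were raised. These were mmi1, which marks meiotic transcripts for decay (−0.44 ± 0.04), the RNA helicase mtr4 (−0.37 ± 0.10) and air1 of the polyadenylation complex that feeds the exosome (−0.32 ± 0.07). The exosome subunits dis3 (−0.20 ± 0.11), csl4 (−0.06 ± 0.07) and mtr3 (−0.03 ± 0.06) did not pass. Nor did cid14 (−0.22 ± 0.02), mtl1 (−0.09 ± 0.20) and red1 (0.07 ± 0.12). Of the 9 genes, 6 lay below 0 on both arrays, against 37.6% of all genes tested.

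Of 138 cytoplasmic ribosomal protein genes tested, 20 were lowered (14.5%, against 10.9% of all genes tested). Only 1, rpp202, was raised (0.39 ± 0.14), against 18.4% of all genes tested. The median of the 138 was −0.11, and 50.7% lay below 0 on both arrays, against 37.6% of all genes tested. The lowest were rpl1603 (−0.64 ± 0.05), rpl4102 (−0.60 ± 0.19) and rps2802 (−0.51 ± 0.11), each with paralogs that share much of their sequence. Their probes lay on a brighter stretch of the dye curve (median mean log2 signal 15.70). Of the 138, 62 had opposite signs on the arrays, against 1109 of 4964 genes tested. Their median moved with the normalization, between −0.67 with median centring and 0.02 with loess then spike-in centring, so its size, its sign and its order against the median of the 61 factors (−0.32 with median centring) depend on that choice. For the other assembly factors and RNA polymerase I the median stayed below 0 in all 12 settings that could move it. The gap between ribosomal protein genes and the 61 factors was not tested.

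**Figure D4:**
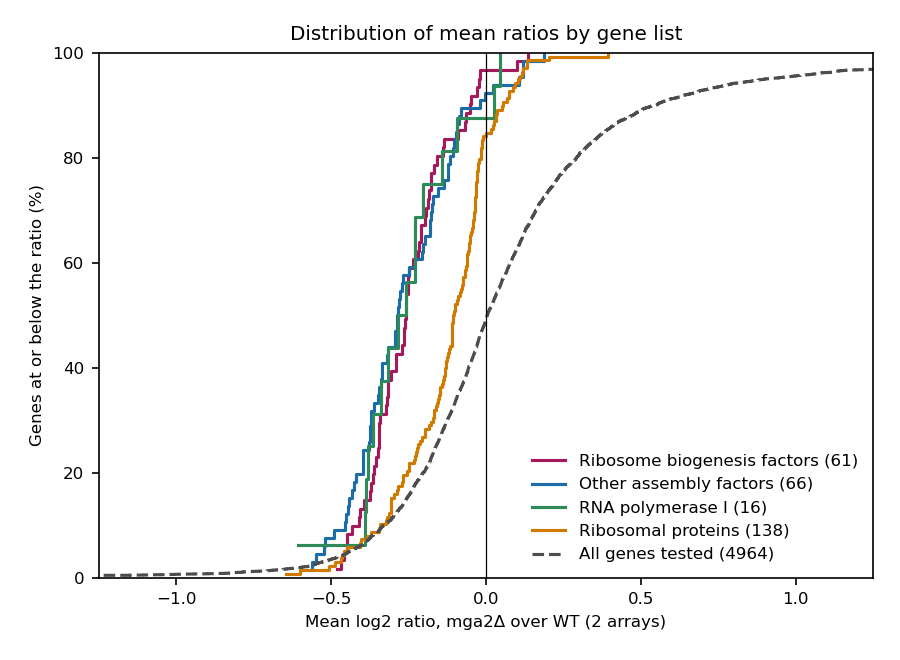
Share of genes at or below each mean log2 ratio of mga2Δ over WT, for the 61 factors, 3 related lists and all genes tested; the number of genes is in brackets. The curves of the 61 factors, the other assembly factors and RNA polymerase I run close together and through most of their range lie left of the ribosomal proteins and of all genes, with medians of −0.26, −0.29, −0.27, −0.11 and 0.00.

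The mean of Cy5 over Cy3 across both arrays is the SD between arrays on another scale, and dye and replicate cannot be told apart in it. Its median size was 0.06 over the 61 factors and 0.07 over all genes tested. By its definition it exceeds the strain difference only where the arrays have opposite signs. That held for the 8 factors named above and for 1109 of 4964 genes tested. The limma fit of this mean takes the strain difference as spread and is not read here. The median SD of a factor between arrays was 0.09, against 0.10 over all genes tested. Among the 61 genes, 24 overlap another protein-coding gene in the RefSeq table, and whether their probes lie in the shared stretch was not tested.

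The direction of the median held in every processing setting that could move it, but the calls did not. With median centring in place of loess, limma lowered 0 of the 61 factors and 0.524% of all genes, although the factors' median was −0.32. An unadjusted limma p under 0.05 was reached by 13 factors. No such count was made over all genes, so this number is not read as a result about the factors. The arrays differed more in that setting, with medians of −0.24 on array 1 and −0.41 on array 2, and nop56 stood at −0.24 and −0.91. With prior degrees of freedom of 2.81 in place of 5.62, only rrp7 and rrp3 were lowered (3.55% of all genes).

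Spike-in RNAs, added to the samples before labelling, gave another zero. Centring on them after loess placed the median of all genes at 0.13 and that of the 61 factors at −0.13. The 6 factors still lowered were rrp7, noc201, utp23, rrp14, rrp3 and nop2 (5.3% of all genes were lowered and 28.4% raised). Centring on them without loess placed the median of all genes at 0.19 and that of the factors at −0.11, with 0 lowered (0.242% of all genes).

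In the remaining settings the lowered share of the 61 factors was above that of all genes each time. It was 25 factors without background correction (12.6% of all genes), 25 with a smaller normexp offset (11.7%), 30 with signals as processed by the scanner software (16.4%) and 28 with scale normalization (14%). It was 24 both with every probe kept (11.1%) and with both channels required above background (11%), 23 with outlier spots kept (10.7%) and 36 with the deposited ratios (22.9%). At an adjusted p of 0.10 it was 34 (16.4%), and with a trended robust prior 30 (14%). No factor was raised in any setting. The share of all genes raised was 20%, 19.2%, 17.8%, 21.4%, 18.4%, 18.3%, 18.2%, 15.1%, 22.9% and 20.6% in the same order, 2.94% with median centring, 2.62% with spike-in centring without loess and 9.93% with the smaller prior degrees of freedom.

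**Figure D5:**
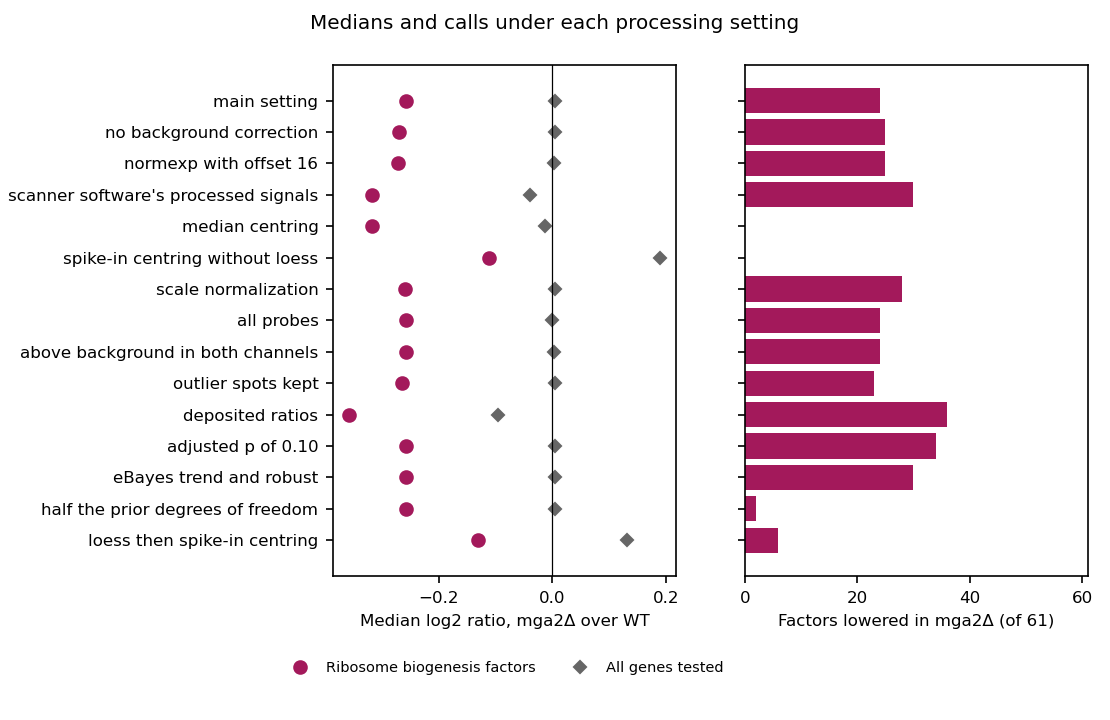
Median log2 ratio of mga2Δ over WT for the 61 factors and for all genes tested (left), and the number of factors lowered (right), in the setting used throughout (top) and the alternatives. Both medians keep a similar distance in every setting, while the number lowered runs from 0 to 36. Settings that change only the test, or shift all genes on an array alike, could not alter that distance.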

How the data were processed

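Oligo-dT primed, cyanine-labelled RNA (400 ng of total RNA, with spike-in RNAs) was hybridised, per the labels' protocols. Spot intensity values were deposited as extracted by Agilent Feature Extraction 10.5.1.1, per the file headers. The scanner's log10 ratios (Cy5 over Cy3) set the direction of the authors' deposited log2 ratios, which run as mga2Δ over WT and are centred near a mean of 0 (r of 0.981 and 0.982 across probes with the scanner's ratio, medians −0.08 and −0.12, SD 0.983 and 0.987 times that of the log2 scanner ratio). The submitters' processing notes also name Partek, and the step that normalized these ratios is unknown.

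Median spot intensity was corrected with normexp (offset 50) and loess-normalized in limma 3.58.1 (R 4.3.3). Outlier spots (3.57% and 3.36%) were left out and the 3 spots of a probe averaged. Array 2 was turned in sign. Probes entered the test with at least 2 such spots per array above background in either channel. Ratios were tested against 0 with lmFit and eBayes (1 residual and 5.62 prior degrees of freedom). No spot was saturated. Channel signals were taken after Aquantile normalization. Both arrays lay on 1 slide in 1 scan, so no batch could be tested. The steps were run on simulated data with known changes. A floor on recovery was set only for changes larger than those of the factors, and recovery at their size is not given here.

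Symbols came from a RefSeq table of assembly ASM294v3: all 61 factors matched by locus tag, as did 5021 of 5057 probes (3 by alias, 33 not at all). The table gives no products, so roles follow symbols, or aliases where a symbol was in no list. No promoter or probe sequences were used here, and the planned motif counts were not made. Members and lists were chosen with earlier results of these data known. Named genes are mga2, sre1, all lowered factors, the extremes of each role and up to 3 lowered genes of each related list. Other factors, rpp202, gar1 and the genes of related lists that did not pass were named after their values were seen. Figures were drawn with Python 3.11.15 and matplotlib 3.10.9.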

Additional observations from a re-analysis of the deposited data

How the results depend on the processing

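No paired analysis was possible because each array is itself 1 replicate pair and its ratio already holds the pairing. Of 16 alternatives, 1 (loess then spike-in centring) was chosen after seeing the data. Settings that change only the test leave every ratio as it was, and spike-in centring shifts all genes on an array alike. These could not change the factors' median minus that of all genes. The median of the 61 factors was below 0 in all 16 alternatives. Minus that of all genes, it was −0.30 to −0.26 in the 14 with a test. It moved beyond the spread between arrays to −0.32 with the scanner software's processed signals (30 factors lowered), −0.32 with median centring, −0.11 with spike-in centring without loess, −0.36 with the deposited ratios (36 lowered) and −0.13 with loess then spike-in centring. On single arrays it was −0.27 and −0.24, with no test, since 1 array leaves no residual degree of freedom. Factors lowered numbered 0 with median centring and 0 with spike-in centring without loess. In the latter, 1 factor reached an unadjusted limma p under 0.05. No such count was made over all genes, so this number is not read as a result about the factors. Factors lowered numbered 2 with 2.81 prior degrees of freedom and 6 with loess then spike-in centring. They numbered between 23 and 36 in the other 10 settings with a test. In 9 of those 10, all 24 were among them, and in the remaining one, with outlier spots kept, utp4 was not. No factor was raised in any setting. Over all genes, the raised and lowered counts were 146 and 26 with median centring, 130 and 12 with spike-in centring without loess, 493 and 176 with 2.81 prior degrees of freedom, and 1412 and 263 with loess then spike-in centring. Lowered genes numbered 812 with processed signals, 1138 with deposited ratios and 814 at an adjusted p of 0.10. The main setting gave 915 and 541. The cause of these shifts was not tested. The change in prior degrees of freedom alters only the assumed spread. Groups of 2 arrays are too small for a search for outlying samples. The lowest median spot signals of any factor were 116 in Cy3 and 243 in Cy5 on array 1, against 18.5 and 61 at negative controls, and 101 and 221 on array 2, against 18 and 62.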
